A study of Saccharomyces cerevisiae with 4 samples.

Results

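The 3′ end of the 25S rRNA and the adjoining 3′ external transcribed spacer (3′ ETS) were examined in a PAR-CRAC experiment on the yeast RNA helicase Dbp7. The region comprised nucleotides 3301 to 3396 of 25S, the last 96 nucleotides of that rRNA, and the 211 nucleotides of the 3′ ETS, 307 of the 6858 nucleotides of the 35S pre-rRNA in all. It held 115 of the 1920 uridines of the precursor, 36 in 25S and 79 in the spacer. All positions were chosen by their place in the sequence and not by their values. The experiment comprised 4 libraries of the BY4741 strain of Saccharomyces cerevisiae, 2 from cells expressing Dbp7 with a C-terminal His-Tev-ProtA tag (HTP) from its own genomic locus and 2 from wild-type cells (WT) without a tag, which report the background of the purification. Both strains were grown with 4-thiouracil and irradiated at 365 nm, so that labelled uridines joined to a protein could be read as T-to-C substitutions. The libraries of a strain, numbered 1 and 2, came from independent PAR-CRAC experiments.

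In yeast, RNA polymerase I transcribes 18S, 5.8S and 25S as a single precursor, from which the spacers are removed. The 3′ ETS is the last stretch to be made. It contains a stem-loop that the RNase III enzyme Rnt1 cleaves cotranscriptionally, after which 3′ to 5′ exonucleases, among them Rex1, remove the remaining spacer nucleotides up to the mature end of 25S. The end of 25S belongs to domain VI, the last of the domains of this rRNA, where the terminal nucleotides pair with a sequence upstream to close helix 99. Dbp7 is a DExD-box RNA helicase needed for production of the large ribosomal subunit.

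The end of 25S is printed here with the 8 uridines that carried most substitutions with Dbp7-HTP in capitals, since these are the sites named in the results.
25S nucleotides 3301 to 3396: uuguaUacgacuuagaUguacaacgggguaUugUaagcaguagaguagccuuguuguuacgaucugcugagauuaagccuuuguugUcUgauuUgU
The rDNA lies on chromosome XII. In the last 22 nucleotides of 25S, the capitals below mark the 6 nucleotides at positions 3389 to 3394. They are perfectly complementary to positions 3294 to 3299, the longest such match between the last 15 nucleotides of 25S and the 15 nucleotides before position 3301. By this complementarity alone they were taken as the 3′ strand of helix 99.
25S nucleotides 3375 to 3396: aagccuuuguugucUGAUUUgu
The spacer starts with a run of uridines broken by single other bases, in which the capitals mark the uridines among the 8 of the 3′ ETS with most substitutions.
3′ ETS nucleotides 1 to 12: UUUUUaUUucuu
The first 60 nucleotides of the spacer were predicted by RNAfold to form 1 long stem of 24 base pairs between nucleotides 5 and 59 (minimum free energy −29.8 kcal per mol). Its loop of 4 nucleotides, at positions 30 to 33, is in capitals.
3′ ETS nucleotides 1 to 60: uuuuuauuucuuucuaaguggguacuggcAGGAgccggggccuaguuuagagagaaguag

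Read totals were 1214217 and 730583 for Dbp7-HTP and 159127 and 467529 for WT, and coverage was expressed as reads per 1000000 reads (RPM). The totals of the first replicates were estimated from their 35S coverage, so their RPM carry the error of that estimate, whereas shares within a library do not. WT replicate 1 was the shallowest library, and 3 reads in it already make 18.9 RPM, against 2.47 and 4.11 RPM in the Dbp7-HTP libraries and 6.42 RPM in WT replicate 2. Intervals reflect counting error alone, because copies made by PCR are not separate molecules.

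More reads covered the end of 25S in the Dbp7-HTP libraries than in WT, but this order was not particular to the end. Across all 3396 nucleotides of that rRNA, the WT libraries stood at 869 and 586 RPM and the Dbp7-HTP libraries at 2031 and 1967 RPM. Whether the end differed from the rest of 25S was not tested. The last 96 nucleotides of 25S averaged 3440 and 3517 RPM in the Dbp7-HTP libraries, against 1421 and 967 RPM in WT. Both Dbp7-HTP libraries thus lay above both WT libraries, and the Dbp7-HTP pair lay closer together. The means were 3478 ± 54.5 RPM for Dbp7-HTP and 1194 ± 321 RPM for WT (SD, n = 2 each), a log2 ratio of 1.57 on the scale of log2(RPM + 1), beyond the distance of 0.55 between the WT libraries (two-sided exact permutation p = 0.333; 2 libraries against 2 cannot give a smaller p). Scaled to the summed 35S coverage of each library in place of total reads, the log2 ratio was 0.74. RPM are shares of all reads, and a scaling to 35S coverage lowered the median log2 ratio of all 35S windows to −0.74, from a value of 0.09 with total reads.

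The difference was not even along the 96 nucleotides, as the plot of coverage by distance from the 3′ end shows. With Dbp7-HTP, coverage was highest at the first nucleotide of the region, U3301, with 8082 and 11253 RPM, against 1251 and 913 RPM in WT. This was the flank of a peak upstream, since mean coverage was already 12473 and 23061 RPM at nucleotides 3296 to 3300 in Dbp7-HTP, against 1532 and 1774 RPM in WT. In WT the highest coverage of these 96 nucleotides stood elsewhere, at nucleotide 3325 in replicate 1 (2049 RPM) and at nucleotide 3319 in replicate 2 (1679 RPM).

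From U3301 the Dbp7-HTP coverage fell, to its lowest at U3352 in replicate 1 and at U3351 in replicate 2, while the WT coverage first increased. Between the means of nucleotides 3301 to 3305 and of 3306 to 3310, coverage fell to 0.853 and 0.57 of its level in the Dbp7-HTP libraries and grew to 1.33 and 1.5 times its level in the WT libraries. At nucleotides 3350 to 3354 the strains were close, with 1213 and 1065 RPM for Dbp7-HTP and 1311 and 556 RPM for WT. Here the groups overlapped, WT replicate 1 being the highest of the 4 libraries.

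The 96 nucleotides were then described in 3 stretches, whose limits were set after the profile had been seen and which therefore have no test. The shoulder, nucleotides 3301 to 3354, had 3808 and 2961 RPM with Dbp7-HTP, against 1738 and 1332 RPM in WT, a log2 ratio of 1.14. The trough, nucleotides 3355 to 3374, had 1493 and 1444 RPM with Dbp7-HTP, against 946 and 347 RPM in WT, a log2 ratio of 1.36. It did not hold the lowest Dbp7-HTP coverage at a single nucleotide. That was 1186 and 1051 RPM, at the end of the shoulder, against 1414 and 1321 RPM in the trough. The terminal block, nucleotides 3375 to 3396, had 4306 and 6765 RPM with Dbp7-HTP, against 1072 and 636 RPM in WT, a log2 ratio of 2.71. All 3 stretches were higher in both Dbp7-HTP libraries than in both WT libraries, and the ratio of the terminal block exceeded those of the stretches before it. Scaled to 35S coverage, the log2 ratios were 0.31 for the shoulder, 0.52 for the trough and 1.87 for the terminal block. Without WT replicate 2 the trough's log2 ratio was 0.63, and without WT replicate 1 it was 2.08.

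**Figure D1:**
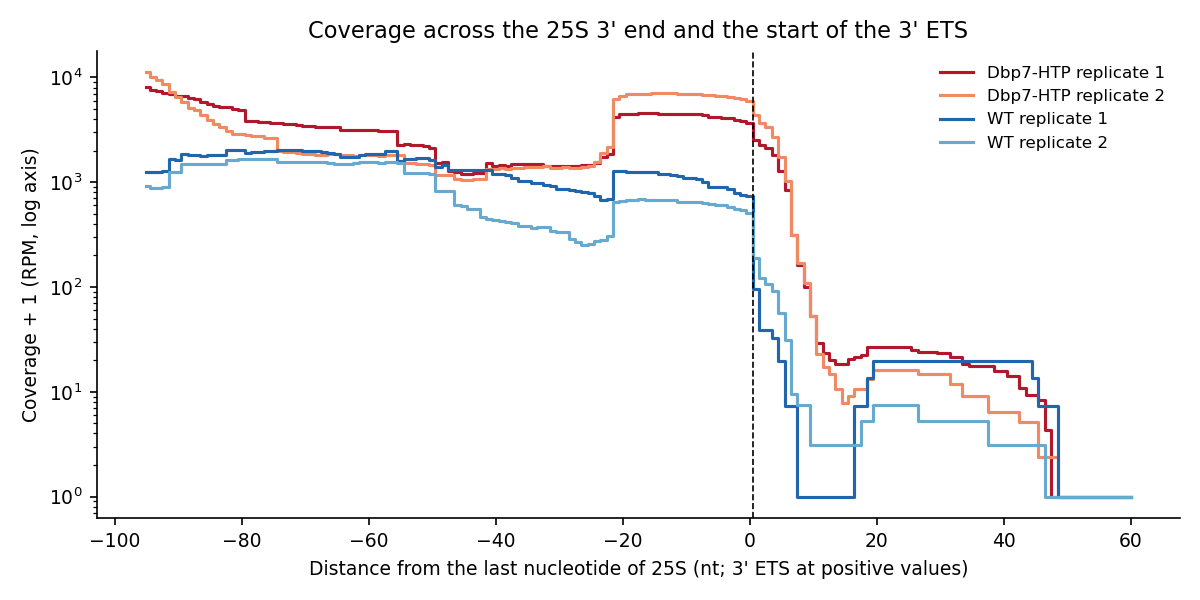
Coverage (RPM + 1, log axis) by distance from the last nucleotide of 25S in nt, which has distance 0, with 1 line per library; the dashed line is the border of 25S and the 3′ ETS. Coverage stepped up in all 4 libraries between nucleotides 3374 and 3375, no library had reads at 3′ ETS nucleotides 49 to 60, and past the border the Dbp7-HTP lines stayed above the WT lines over nucleotides 1 to 10 of the 3′ ETS.

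The border of the trough and the terminal block was a step at a single position. Between U3374 and A3375, coverage increased by 2.25 and 2.85 times in the Dbp7-HTP libraries, with 2272 and 1580 reads before the step and 5119 and 4501 reads after it. In WT it increased by 1.85 times in replicate 1, which had 110 reads before and 204 after the step, and by 2.13 times in replicate 2, which had 143 and 305. The step stood at the same nucleotide in all 4 libraries, and it was the largest rise in reads between neighbouring nucleotides of the region in 3 of them. In WT replicate 2 the rise between U3304 and A3305 was 164 reads against 162 at this step, although by ratio it was 1.39 times against 2.13 times. Past the step, coverage with Dbp7-HTP reached a second maximum at nucleotide 3384, with 4494 and 7063 RPM, against 1181 and 678 RPM in WT.

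At single nucleotides, both Dbp7-HTP libraries exceeded both WT libraries at 68 of the 96 positions of the 25S end, and at no position did both lie below. Of all 6858 nucleotides of the 35S pre-rRNA, 38.2% had both Dbp7-HTP libraries above both WT libraries and 32.1% had both below. The 68 positions comprised 26 of the 54 of the shoulder, 20 of 20 in the trough and 22 of 22 in the terminal block. These counts depend on limits set after the profile had been seen. In the 3′ ETS, 18 of 211 positions had both Dbp7-HTP libraries above both WT libraries, among them each of nucleotides 1 to 10.

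Reads continued across the end of mature 25S into the spacer, and much more so with Dbp7-HTP. At U3396, the last nucleotide of 25S, there were 4416 and 4352 reads in the Dbp7-HTP libraries, against 116 and 235 reads in the WT libraries. At nucleotide 1 of the 3′ ETS there were 3071 and 3213 reads with Dbp7-HTP, against 15 and 87 reads in WT. Coverage across the border was thus kept to 69.5% (95% Wilson interval 68.2 to 70.9%) and 73.8% (72.5 to 75.1%) with Dbp7-HTP, against 12.9% (8.0 to 20.2%) and 37.0% (31.1 to 43.4%) in WT. The intervals of the Dbp7-HTP libraries did not meet those of the WT libraries, and the WT libraries also differed from each other.

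Over 10 nucleotides on each side of the border, mean spacer coverage in the Dbp7-HTP libraries amounted to 27.9 and 26.6% of 25S coverage, against 2.59 and 10.3% in WT. The means were 27.2 ± 0.933% for Dbp7-HTP and 6.45 ± 5.47% for WT (SD, n = 2 each), 20.8 percentage points apart and further than the libraries of one strain lay from each other (two-sided exact permutation p = 0.333, the minimum attainable). This share is formed within each library and does not depend on its read total. Its size depended on the stretch taken, with a difference of 37.8 percentage points over 5 nucleotides on each side and of 10.1 over 20.

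The same share was computed at the other ends of mature rRNA that border a spacer on their 3′ side. At the end of 18S, coverage of the first 10 nucleotides of ITS1 was 24.7 and 12.1% of that of the last 10 nucleotides of 18S with Dbp7-HTP, against 29.1 and 57.2% in WT. At the end of 5.8S, the share for ITS2 was 4.86 and 4.02% with Dbp7-HTP, against 6.32 and 2.73% in WT. By this share, the Dbp7-HTP libraries were below both WT libraries at the end of 18S and overlapped them at the end of 5.8S. They were above both at the end of 25S. At the first spacer nucleotide alone, 18S had 74.0 and 60.5% with Dbp7-HTP, against 66.7 and 84.3% in WT, an overlap. These shares rested on 50 and 38 reads at the last nucleotide with Dbp7-HTP, against 39 and 108 in WT. The end of 5.8S had 17.0 and 15.4% with Dbp7-HTP, against 57.7 and 38.5% in WT. Only the end of 25S kept its order on both measures. The difference between the ends was not tested.

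Past the border the coverage declined nucleotide by nucleotide through the uridine run. With Dbp7-HTP, 58.6 and 56.6% of the coverage of U3396 was left at spacer nucleotide 3, against 5.17 and 20.9% in WT. At nucleotide 5 it was 34.8 and 29.5% with Dbp7-HTP, against 2.59 and 11.1% in WT. At nucleotide 7 it was 8.56 and 5.28% with Dbp7-HTP, against 0.862 and 1.7% in WT. Within nucleotides 1 to 12, the largest loss relative to the nucleotide before was between A6 and U7, where 37.0 and 31.0% of the reads at A6 continued in the Dbp7-HTP libraries, and where WT had only 1 and 14 reads left at A6. Coverage last reached 50% of that of U3396 at nucleotide 3 and last reached 10% at nucleotide 6 in both Dbp7-HTP libraries. In WT it was under 50% from nucleotide 1 on, and last reached 10% at nucleotide 1 in replicate 1 and at nucleotide 5 in replicate 2. The deposited profiles give how many reads cover a nucleotide and not where single reads end, so the lengths of the fragments are not known.

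**Figure D2:**
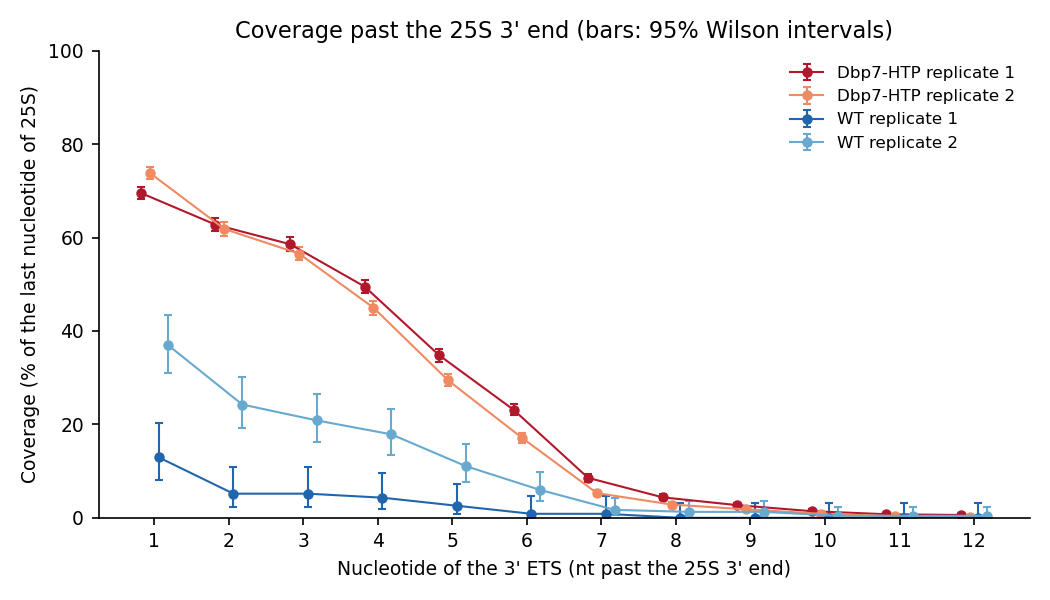
Coverage of nucleotides 1 to 12 of the 3′ ETS as a percentage of the coverage of the last nucleotide of 25S, with 95% Wilson intervals, 1 line per library. At nucleotide 1 the Dbp7-HTP libraries stood at 69.5 and 73.8% and the WT libraries at 12.9 and 37.0%, and all 4 were under 10% at nucleotide 7.

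Averaged over nucleotides 1 to 10 of the spacer, a stretch tied to the border share above, coverage was 1147 and 1755 RPM in Dbp7-HTP, against 23.3 and 61.2 RPM in WT, a log2 ratio of 5.19. Over the whole 3′ ETS the mean was 57.8 and 85.0 RPM in Dbp7-HTP, against 13.6 and 3.54 RPM in WT. Both Dbp7-HTP libraries were higher than both WT libraries, which differed from each other by 1.69 on the log2 scale. The means were 71.4 ± 19.2 RPM for Dbp7-HTP and 8.59 ± 7.14 RPM for WT (SD, n = 2 each), a log2 ratio of 3.12 (two-sided exact permutation p = 0.333, the minimum attainable).

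As whole-spacer means, the other spacers did not share this order. Mean coverage of the 5′ ETS was 27.1 and 17.2 RPM in Dbp7-HTP, against 69.6 and 45.7 RPM in WT. ITS1 had 56.5 and 53.5 RPM with Dbp7-HTP, against 143 and 195 RPM in WT. ITS2 had 80.0 and 70.3 RPM with Dbp7-HTP, against 86.4 and 49.9 RPM in WT. Both Dbp7-HTP libraries were thus below WT for the 5′ ETS and ITS1 and within the WT range for ITS2. By whole-spacer mean, only in the 3′ ETS were they above both WT libraries. Part of ITS1 did share the order. Its nucleotides 301 to 350 had 66.3 and 63.6 RPM with Dbp7-HTP, against 16.7 and 7.19 RPM in WT. Nucleotides 351 to 361 had 222 and 164 RPM with Dbp7-HTP, against 134 and 28.6 RPM in WT. Earlier in ITS1, coverage was below both WT libraries in each stretch of 50 nucleotides.

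Behind the uridine run, a low second rise of coverage lay over nucleotides 15 to 47, the part of the predicted stem that holds the loop, and it did not separate the strains. Mean coverage there was 18.6 and 9.62 RPM in Dbp7-HTP, against 15.8 and 3.82 RPM in WT. The most reads at any of these nucleotides were 31 and 11 with Dbp7-HTP, against 3 and 3 in WT, so that the WT values rested on as few reads as the limit named above. The log2 ratio was 0.68, changed to −0.061 when scaled to 35S coverage, and lay between −0.22 and 1.58 when 1 library was left out. In all 4 libraries the rise ended between nucleotides 46 and 48.

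From nucleotide 49 to the end of the spacer, coverage was at or near 0 in 3 libraries. With Dbp7-HTP, replicate 1 had 1 read at each of 21 of these 163 nucleotides and replicate 2 had none, which allows up to 4.11 RPM. WT replicate 1 had reads at 148 of the 163 nucleotides, at most 5 at any of them, and WT replicate 2 had none, which allows up to 6.42 RPM. The strains therefore overlapped here, and the mean of 13 RPM in WT replicate 1 stood alone.

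Coverage was tested with limma over 136 windows of 50 nucleotides along the 35S pre-rRNA that had a mean of at least 10 RPM. Of these, 55 windows had a Benjamini-Hochberg adjusted p below 0.05, or 40.4%, of which 25 were above (18.4%) and 30 below WT (22.1%). Scaled to 35S coverage, 17 were higher and 50 lower. The region contributed 3 tested windows, of which 2 passed, both higher with Dbp7-HTP, and 4 windows of the 3′ ETS had too few reads to be tested.

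The first window of the 3′ ETS, nucleotides 1 to 50, had 243 and 359 RPM with Dbp7-HTP, against 15.2 and 14.9 RPM in WT. The groups did not overlap, and the WT libraries were nearly equal as window means, though not within the window. WT had 23.3 and 61.2 RPM over nucleotides 1 to 10, and 15.8 and 3.82 RPM over nucleotides 15 to 47. The mean in WT replicate 1 was also under the 18.9 RPM that 3 reads make in that library. Its log2 ratio of 4.21 (SE 0.49, limma adjusted p = 6.16e-05) ranked 1 of 136, although the next window, nucleotides 2351 to 2400 of 25S with 4.17 (SE 0.48), differed from it by less than either SE.

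The last window of 25S, nucleotides 3351 to 3396, had 2813 and 3956 RPM with Dbp7-HTP, against 1038 and 502 RPM in WT. Both Dbp7-HTP values were above both WT values, with a log2 ratio of 2.21 (SE 0.53, limma adjusted p = 0.00602). This ratio ranked 16 of 136, below other 25S windows such as nucleotides 3251 to 3300 (2.76) and 3101 to 3150 (3.93). The window before it, nucleotides 3301 to 3350, had 4016 and 3113 RPM with Dbp7-HTP, against 1773 and 1395 RPM in WT. Here too the groups did not overlap, but the log2 ratio of 1.17 (SE 0.48), rank 34, did not pass the test (limma adjusted p = 0.0655). The window of nucleotides 3351 to 3396 did not pass with a single Dbp7-HTP library, with adjusted p = 0.0955 without replicate 1 and 0.179 without replicate 2. The window of nucleotides 3301 to 3350 passed without WT replicate 1 (adjusted p = 0.0106) and without WT replicate 2 (adjusted p = 0.0411).

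**Figure D3:**
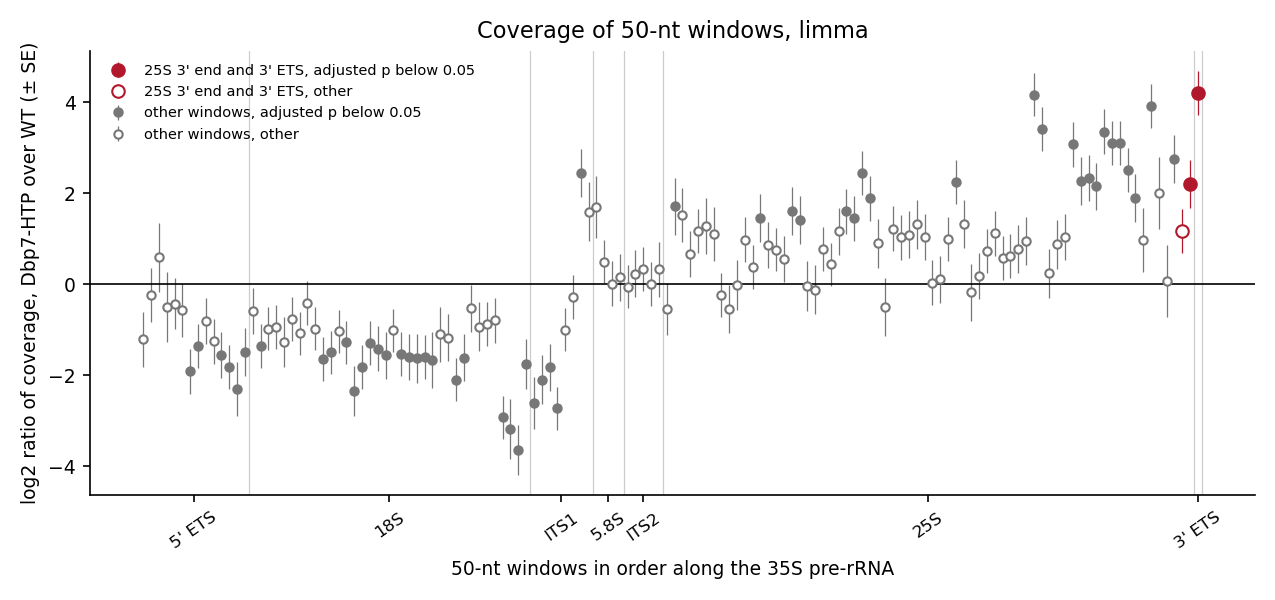
The log2 ratio of coverage (Dbp7-HTP over WT, ± SE) of the 136 tested 50-nt windows in order along the 35S pre-rRNA; red marks the 3 windows of the region and filled symbols an adjusted p below 0.05. The window of 3′ ETS nucleotides 1 to 50 is the highest point, at 4.21, and the 2 red points to its left are 2.21 and 1.17.

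Substitutions mark the uridines themselves. In the deposited profiles every substitution of the 35S pre-rRNA was at a uridine. All 36 uridines of the 25S end carried substitutions in every library, 9429 and 6479 in total with Dbp7-HTP and 671 and 1235 in WT. Of the 79 uridines of the 3′ ETS, 13 and 11 carried any with Dbp7-HTP and 12 and 7 in WT. The 3 uridines with the most substitutions in the library held 80.0 and 82.9% of the spacer's substitutions with Dbp7-HTP, against 40.0 and 81.0% in WT, where the totals were only 15 and 21.

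Counts of substitutions were tested with edgeR's quasi-likelihood test over the 1306 uridines of the 35S pre-rRNA that had a mean of at least 10 substitution RPM. With Benjamini-Hochberg adjustment, 331 uridines had an adjusted p below 0.05, or 25.3%, of which 190 were above (14.5%) and 141 below WT (10.8%). Of the 41 tested uridines of the region, 17 passed, and all 17 were higher with Dbp7-HTP. They were 12 of the 36 of the 25S end and the 5 tested uridines of the 3′ ETS. Of the spacer uridines, U1, U3, U4 and U5 averaged under 10 RPM in WT and reached the limit only through the Dbp7-HTP libraries, so they had to be higher to be tested and their calls are no support. U2 averaged 10.6 RPM in WT, just over the limit, on 1 and 7 substitutions. The 1 in WT replicate 1 made 6.28 RPM by an estimated total, so the call of U2 is weak support. With the 35S substitutions of each library as its size in place of total reads, 114 uridines of the 35S pre-rRNA were higher and 342 lower, and in the region 12 were higher and 4 lower.

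**Figure D4:**
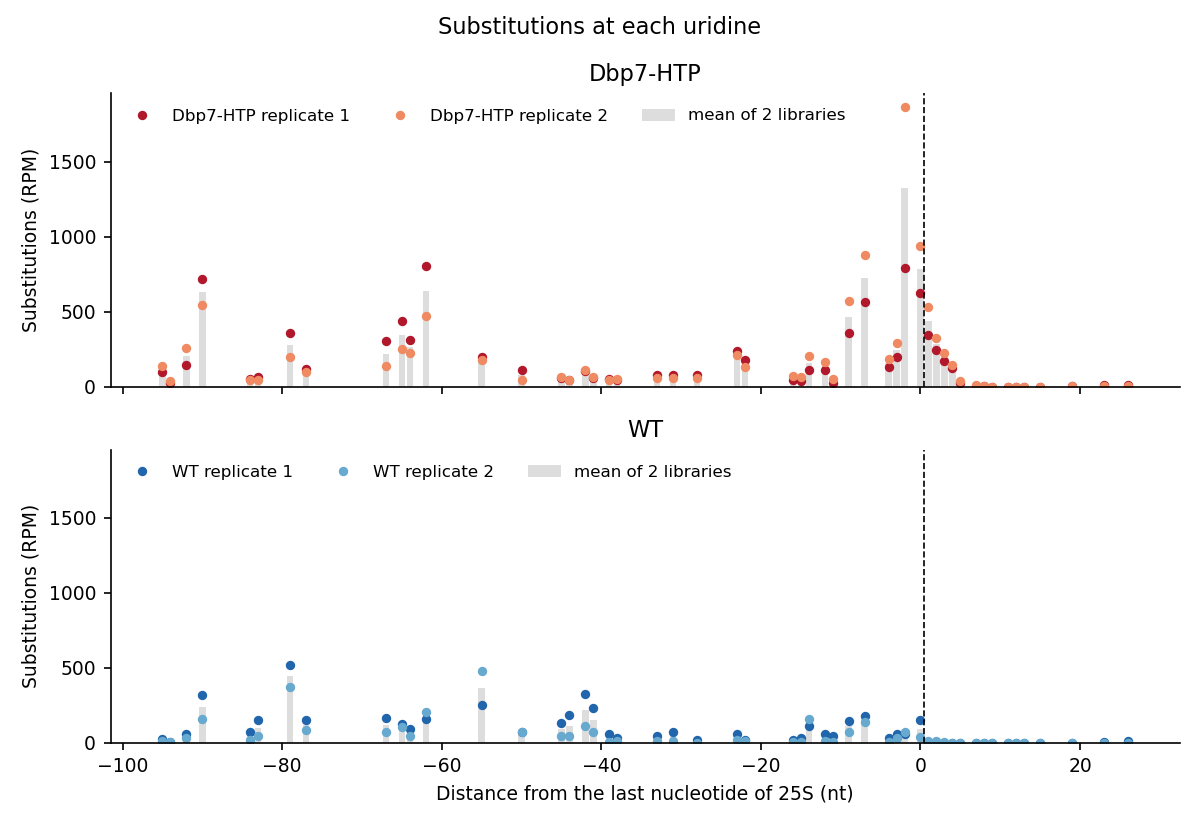
Substitutions (RPM) at each uridine by distance from the last nucleotide of 25S in nt, which has distance 0, for Dbp7-HTP above and WT below on the same scale; points are libraries and bars the mean of 2 libraries. The tallest Dbp7-HTP bar is U3394 (791 and 1860 RPM), and the bars of the 3′ ETS past the dashed border are seen with Dbp7-HTP and not with WT.

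The leading site with Dbp7-HTP was U3394, the last nucleotide of the stretch taken as the helix 99 strand. It had 791 and 1860 substitution RPM with Dbp7-HTP, against 56.6 and 74.9 RPM in WT. Both Dbp7-HTP libraries were far above both WT libraries, although they differed from each other. The log2 ratio was 4.31 (SE 0.72, edgeR adjusted p = 0.0134), the largest among the tested uridines of the 25S end. Without either Dbp7-HTP replicate the adjusted p was 0.0516 or 0.0720.

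U3396, the last nucleotide of 25S, had 624 and 939 substitution RPM with Dbp7-HTP, against 151 and 38.5 RPM in WT (log2 ratio 3.11, SE 0.78, edgeR adjusted p = 0.0289). U3389, the first nucleotide of the same helix strand, had 563 and 880 substitution RPM with Dbp7-HTP, against 176 and 139 RPM in WT (log2 ratio 2.2, SE 0.57, edgeR adjusted p = 0.0307). U3387 had 356 and 572 substitution RPM with Dbp7-HTP, against 145 and 74.9 RPM in WT (log2 ratio 2.11, SE 0.61, edgeR adjusted p = 0.0422). At each of these 3 sites the groups did not overlap, and replicate 2 was the higher Dbp7-HTP library, as it was for the coverage of the terminal block. U3389 and U3387 did not pass when the 35S substitutions were taken as library size (adjusted p = 0.0815 for U3389 and 0.0949 for U3387). None of these 3 sites passed with a single Dbp7-HTP library, the adjusted p being 0.11 and 0.15 for U3396, 0.251 and 0.320 for U3389, and 0.251 and 0.324 for U3387.

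The other leading sites of the 25S end lay in the shoulder and did not pass the test. U3334 had 806 and 469 substitution RPM with Dbp7-HTP, against 157 and 207 RPM in WT (log2 ratio 1.80, SE 0.58, edgeR adjusted p = 0.0543). U3306 had 718 and 546 substitution RPM with Dbp7-HTP, against 320 and 158 RPM in WT (log2 ratio 1.42, SE 0.59, edgeR adjusted p = 0.106). U3331 had 439 and 252 substitution RPM with Dbp7-HTP, against 126 and 105 RPM in WT (log2 ratio 1.59, SE 0.57, edgeR adjusted p = 0.0706). At all 3 the Dbp7-HTP libraries were above both WT libraries, and all 3 passed without WT replicate 1 and without WT replicate 2. U3334 also passed without the filter (adjusted p = 0.0318) and with the alternative totals of the first replicates (adjusted p = 0.0498).

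Of the 3 leading sites in WT, U3317 and U3306 were also among the 8 leading sites with Dbp7-HTP, and U3341 was not. U3317 led in WT and had 356 and 198 substitution RPM with Dbp7-HTP, against 515 and 374 RPM in WT (log2 ratio −0.68, SE 0.56, edgeR adjusted p = 0.375). U3341, the next in WT, had 197 and 177 substitution RPM with Dbp7-HTP, against 251 and 479 RPM in WT (log2 ratio −0.98, SE 0.56, edgeR adjusted p = 0.211). Both Dbp7-HTP libraries were below both WT libraries at these 2 uridines, and neither passed the test. At U3341 the WT libraries were also far apart. U3341 passed without WT replicate 1 (adjusted p = 0.0075) and with the 35S substitutions as library size (adjusted p = 0.0443).

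Calls were counted over the same 3 stretches, whose limits were set after the coverage had been seen, against 25.3% of all tested uridines called in either direction. In the terminal block 6 of 11 tested uridines passed, and the log2 ratios ran from 0.18 to 4.31 with a median of 2.2. In the trough 3 of 8 passed, with log2 ratios from −1.19 to 3.20 and a median of 1.32. Among these 3, U3368 averaged 10.5 RPM in WT, just over the limit of the test, on 3 and 1 substitutions, so its call is weak support. U3368 was not called with DESeq2 or with the 35S substitutions as library size. In the shoulder 3 of 17 passed, with log2 ratios from −1.27 to 2.88 and a median of 0.27. All 12 called uridines were higher with Dbp7-HTP, and 7 uridines of the shoulder, 1 of the trough and none of the terminal block had a log2 ratio below 0. Over all 1306 uridines tested, the median log2 ratio was 0.16.

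With Dbp7-HTP, most substitutions of the spacer stood in the uridine run next to 25S, in decreasing number. WT replicate 1 differed, with only 1 of its 15 spacer substitutions in this run, at U2. U1 of the 3′ ETS had 418 and 388 substitutions with Dbp7-HTP, against 0 and 7 in WT. U2 had 301 and 236 with Dbp7-HTP, against 1 and 7 in WT (log2 ratio 4.56, SE 0.67, edgeR adjusted p = 0.0134). Over the summed reads of each strain, these were 37.1 times (95% exact interval 17.9 to 92.6) and 21.6 times (10.9 to 50.4) as many per read with Dbp7-HTP as in WT. No WT library reached the Dbp7-HTP counts, and WT replicate 1 had almost none.

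U3 had 208 and 162 substitutions with Dbp7-HTP, against 0 and 3 in WT, a ratio of 39.7 (95% exact interval 13.5 to 194). U4 had 153 and 106 with Dbp7-HTP, against 0 and 1 in WT, a ratio of 83.5 (95% exact interval 14.8 to 3309). The wide intervals come from the 3 and 1 substitutions in WT. U5 had 33 and 28 with Dbp7-HTP and none in either WT library, and the lower 95% exact limit of its ratio was 5.17. With WT set to a floor of 3 substitutions over both libraries together, the ratio per read was 6.55, which is not a bound.

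U2, which reached the limit of the test in WT by few substitutions, passed in every other setting that kept all 4 libraries. The highest edgeR adjusted p among these was 0.0140, with TMM normalization. Its log2 ratio was 4.24 to 5.46 with 1 library left out. U7 and U8, past the A at nucleotide 6, had 9 and 10 and 7 and 6 substitutions with Dbp7-HTP and none in WT, and were below the limit of the test. In the low rise over the stem, U23 had 11 and 6 substitutions with Dbp7-HTP, against 1 and 1 in WT, and U26 had 11 and 3 with Dbp7-HTP, against 2 and 1 in WT. At U23 and U26 the pooled ratios were 2.74 (95% exact interval 0.65 to 24.4) and 1.5 (0.42 to 8.16), and both intervals include 1, so that a difference was not detectable at this depth. At U26 the mean over libraries ran the other way, with 6.58 substitution RPM for Dbp7-HTP and 7.35 RPM for WT.

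A substitution count grows with coverage, so each count was also divided by the reads that cover the uridine. Since only reads with a T-to-C change had been kept, such a share says where in its length a kept read was changed and not how often a read was changed. Summed over the 36 uridines of the 25S end, the share was 6.07% (95% Wilson interval 5.95 to 6.19%) and 5.94% (5.8 to 6.08%) with Dbp7-HTP, against 9.07% (8.44 to 9.74%) and 8.68% (8.23 to 9.15%) in WT. Both Dbp7-HTP libraries were below both WT libraries, with means of 6.0 ± 0.0913% for Dbp7-HTP and 8.87 ± 0.276% for WT (SD, n = 2 each), a difference of −2.87 percentage points (two-sided exact permutation p = 0.333, the minimum attainable). In the 3′ ETS the summed share was 8.86 and 7.82% with Dbp7-HTP, against 9.09 and 7.37% in WT. There the groups overlapped, with a difference of 0.113 percentage points (two-sided exact permutation p = 1). These sums did not rest on the same uridines. WT replicate 1 had 1 substitution at U2 and none at U1, U3, U4 and U5. Most of its 15 lay from nucleotide 49 on, where the Dbp7-HTP libraries had at most 1 read at any nucleotide. The overlap therefore does not describe the uridine run.

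**Figure D5:**
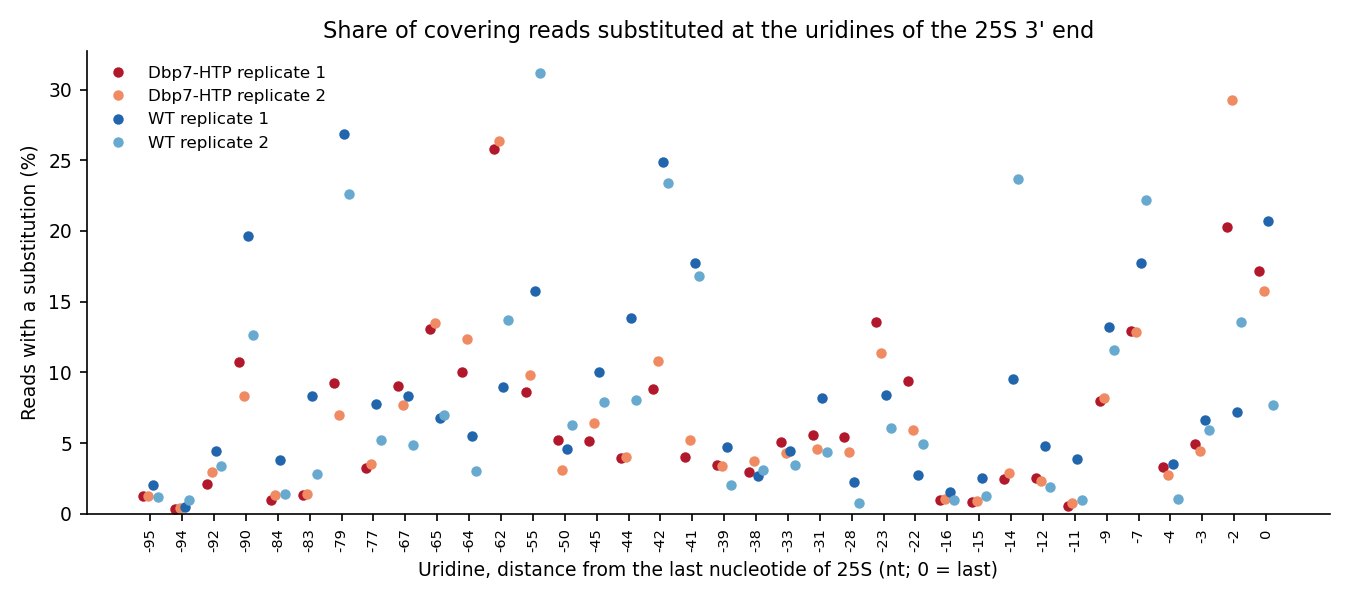
Percentage of covering reads with a substitution at each of the 36 uridines of the 25S end, given by their distance from the last nucleotide of 25S in nt, with 1 point per library. U3394, at −2, has 20.2 and 29.3% with Dbp7-HTP against 7.20 and 13.6% in WT, and U3317, at −79, has 9.24 and 7.0% with Dbp7-HTP against 26.9 and 22.6% in WT.

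The share was higher in both Dbp7-HTP libraries than in both WT libraries at 7 of these 36 uridines, lower in both at 18, and overlapping at 11. Over the 1363 uridines of the 35S pre-rRNA with at least 20 reads in all libraries, 25.8% were higher and 29.6% lower in both. The share at U3394 was 20.2 and 29.3% with Dbp7-HTP, against 7.20 and 13.6% in WT. At U3334 it was 25.8 and 26.3% with Dbp7-HTP, against 8.99 and 13.7% in WT. Both sites were thus higher with Dbp7-HTP in substitution RPM and in substitutions per covering read.

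At the end of 25S the shares went other ways. U3389 had 12.9 and 12.9% with Dbp7-HTP, against 17.7 and 22.2% in WT, and U3387 had 8.0 and 8.21% with Dbp7-HTP, against 13.2 and 11.6% in WT. At these uridines the substitution RPM were higher with Dbp7-HTP while the share of covering reads was lower. At U3396 the share was 17.2 and 15.8% with Dbp7-HTP, against 20.7 and 7.66% in WT, and the groups overlapped. The WT-leading sites had lower shares with Dbp7-HTP, 9.24 and 7.0% against 26.9 and 22.6% in WT at U3317, and 8.62 and 9.80% against 15.7 and 31.2% in WT at U3341. At U1 of the 3′ ETS the share was 13.6 and 12.1% with Dbp7-HTP, against 0 of 15 reads and 8.05% of 87 reads in WT, too few for an order.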

How the data were processed

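The authors mapped the reads to the yeast genome with Bowtie2 (version 2.2.4, also named in the submitters' processing notes), kept reads with a T-to-C change and deposited, per library, the coverage signal and the substitution count of each nucleotide of one 35S copy, neither normalized. Deletions were 0 throughout. The deposited overview values are scores, RPM rounded to whole numbers; the total stated with a deposited snR190 profile, itself a coverage signal, was the total of replicate 2. First-replicate totals were estimated by taking, for each strain, the 35S coverage found for 1 rRNA read in replicate 2 (11.1 for Dbp7-HTP, 12.2 for WT). In the files, 4 repeated border rows were removed, and segment lengths equalled those of RefSeq. No genome build is named in the sources used here.

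Windows were tested on log2(RPM + 1) with limma (version 3.58.1, R 4.3.3), substitution counts with edgeR (version 4.0.16), total reads as library sizes, and single values by exact permutation tests. In simulated data of 136 windows limma found 30 of 30 windows shifted by a log2 ratio of 3 (2 false calls) and 23 of 30 shifted by 2 (2 false calls). In 1306 simulated uridines edgeR found 167 of 200 shifted by 3 (6 false calls) and 21 of 200 shifted by 2. Both simulations used 1 common spread (SD 0.605 for windows, dispersion 0.218 for uridines). Shifts up and down were equally many, and totals had no error. The deposited libraries need not meet these settings, so these figures do not give the error rates of the calls above. The stem was folded with RNAfold (version 2.7.2). The named sites were the windows, the 8 uridines per stretch with most substitutions with Dbp7-HTP and 3 in WT, maxima, steps and the border. Members, lists and stretches were chosen with earlier results of these data known. The growth protocol in the labels names other helicases than Dbp7, which the sample labels give.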

Additional observations from a re-analysis of the deposited data

How the results depend on the processing

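Alternatives covered the pseudocount, scaling, filters, window size, DESeq2 (version 1.42.0), the first-replicate totals (added after the data were seen for windows and uridines) and leaving out each library, a lone library being assumed to vary like the other strain. Windows called along the 35S pre-rRNA numbered 91 with 25-nt and 31 with 100-nt windows, and 12 to 93 when 1 library was left out. Called uridines numbered 522 without the filter and 11 to 701 when 1 library was left out, 11 and 20 without Dbp7-HTP replicate 1 or 2 and 701 and 502 without WT replicate 1 or 2. In the region, 1 to 3 windows (1 without either Dbp7-HTP library, then 3′ ETS 1 to 50) and 4 to 30 uridines (4 without either Dbp7-HTP library, then U1 to U4 of the 3′ ETS, and 30 without WT replicate 1) were called. DESeq2 called 15 of the 17, and TMM the same 17. The replicate number as a block gave 63 windows and 346 uridines, with 2 windows and 19 uridines in the region, and the same mean differences for single values; same-numbered libraries deviated together with r = 0.14 over windows and 0.044 over uridines; with 2 pairs this does not settle whether a number marks a shared experiment. The block ended no call in the region.

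The log2 ratio of the end of 25S was 0.74 scaled to 35S coverage and 1.29 to 1.85 with 1 library left out. That of the 3′ ETS was 2.16 with a pseudocount of 10 RPM, and 2.28 to 3.97 with 1 library left out. The border share differed by 37.8 and 10.1 percentage points over 5 and 20 nt, and by 16.9 to 24.6 with 1 library left out. The share of substituted reads at the end of 25S differed by −1.61 percentage points as a mean over uridines, and by −3.07 to −2.68 with 1 library left out. In the 3′ ETS it differed by −0.75 to 0.97 with 1 library left out, −0.41 without Dbp7-HTP replicate 1 and −0.75 without WT replicate 2; no spacer uridine had 20 reads in every library, so its mean over uridines was not computed. Over 3′ ETS nucleotides 15 to 47 the log2 ratio was −0.061 scaled to 35S coverage and −0.22 to 1.58 with 1 library left out, the lowest without WT replicate 2. From nucleotide 49 on it was −1.83, and −3.73 to 0.073 with 1 library left out, the highest without WT replicate 1. The cause of these changes was not tested. None of the 3 windows and 14 named uridines tested changed direction in these settings. For the uridines this is no support. All but U3341 were named for their many substitutions with Dbp7-HTP, and U1, U3, U4 and U5 of the 3′ ETS had to be higher to be tested. U7, U8, U23 and U26 of the 3′ ETS were not tested. The limits are depth in WT, at most 87 reads in the spacer, and estimated totals.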
